A study of Mus musculus with 5 samples.

Results

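The regions described here are the DNase I-hypersensitive peaks around 5 genes linked to T cell exhaustion, *Tox*, *Tox2*, *Nr4a1*, *Nr4a2* and *Nr4a3*, in naïve CD8+ T cells with and without Tcf1 and Lef1. A peak was a member if its summit lay in the body of one of these genes or within 50 kb of either end, on the mm9 mouse genome. This rule found 36 of the 31116 peaks of the WT list and 32 of the 25525 peaks of the dKO list. They make up 39 distinct sites, because 29 sites were held by both lists, 7 by the WT list only and 3 by the dKO list only.

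DNase-seq locates open chromatin from the short fragments that DNase I releases. WT cells came from mice that were +/+ for *Tcf7*, which encodes Tcf1, and +/+ for *Lef1* (3 replicates), and dKO cells from mice that were fl/fl for *Tcf7* and also fl/fl for *Lef1* (2 replicates), all young adults of either sex on a C57BL/6 background. Both genotypes carried the *hCD2-Cre* transgene and a *Rosa26* GFP reporter, which marks cells in which Cre has acted. Cre from *hCD2-Cre* acts mostly in mature T cells, so the genes were lost late, and spleen cells were sorted as GFP+ and TCRβ+, with high CD62L and low to medium CD44, within the CD8+ gate. The replicates of each genotype were pooled before peaks were called, over 83923734 WT and 62242963 dKO fragments. No value per replicate exists in the lists, so from them the spread between mice is unknown and no test between genotypes was possible. The paper itself counted reads per replicate at its accessible sites and tested for differences between genotypes. Those counts are not part of the lists used here.

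Tox and Tox2 are nuclear proteins with an HMG box, the kind of DNA-binding domain that Tcf1 and Lef1 also carry. Tox serves T cell development in the thymus and sustains the exhausted state of CD8+ T cells under chronic antigen. Nr4a1 (Nur77), Nr4a2 (Nurr1) and Nr4a3 (Nor1) are orphan nuclear receptors that bind DNA without a known classical ligand. Their genes are switched on within a short time of T cell receptor signalling, through calcium and NFAT among other routes, and they too have been tied to exhaustion. The cells were sorted as naïve by surface markers, and whether they had met antigen was not tested.

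The reference sequence is given for the sites on which the results turn, each as the 201 bp centred on the summit of the list named. The first set holds the 3 sites that lost most rank in dKO cells, and capitals mark the E-box CAGCTG, or the 11 bases around the summit where none of the motifs searched was present.
Tox +20.1 kb, chr4:6897768-6897968, plus strand: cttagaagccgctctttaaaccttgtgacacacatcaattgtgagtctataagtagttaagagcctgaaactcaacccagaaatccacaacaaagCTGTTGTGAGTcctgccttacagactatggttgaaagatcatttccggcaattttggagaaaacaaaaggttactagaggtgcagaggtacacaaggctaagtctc
Tox +309 kb, chr4:6609249-6609449, plus strand: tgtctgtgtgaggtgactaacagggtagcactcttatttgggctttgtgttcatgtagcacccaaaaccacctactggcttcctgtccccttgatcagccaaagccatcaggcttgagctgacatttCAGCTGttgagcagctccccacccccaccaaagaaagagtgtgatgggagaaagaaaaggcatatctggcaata
Nr4a3 −5.26 kb, chr4:48052669-48052869, plus strand: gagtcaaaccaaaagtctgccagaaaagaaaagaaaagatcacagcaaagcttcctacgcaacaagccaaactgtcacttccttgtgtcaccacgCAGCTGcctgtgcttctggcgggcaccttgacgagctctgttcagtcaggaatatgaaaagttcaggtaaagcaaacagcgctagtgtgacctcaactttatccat

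The second set holds both sites in introns of *Tox2*, which gained most rank in dKO cells. Capitals mark the E-box CAGCTG in both, the Runx sequence TGTGGTT (here on the minus strand, so written AACCACA) in the first and the NFAT sequence GGAAAA in the second.
Tox2 +24.7 kb, chr2:163054897-163055097, plus strand: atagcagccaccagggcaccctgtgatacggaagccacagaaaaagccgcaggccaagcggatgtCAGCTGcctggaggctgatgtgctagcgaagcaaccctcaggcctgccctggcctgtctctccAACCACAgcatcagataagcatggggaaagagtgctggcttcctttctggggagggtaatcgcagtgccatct
Tox2 +48.9 kb, chr2:163079044-163079244, plus strand: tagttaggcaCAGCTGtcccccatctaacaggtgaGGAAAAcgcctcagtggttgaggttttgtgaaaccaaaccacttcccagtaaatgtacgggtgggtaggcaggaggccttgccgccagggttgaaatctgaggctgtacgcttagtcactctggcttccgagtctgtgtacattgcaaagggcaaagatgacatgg

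The third set holds the only members with the Tcf/Lef core ATCAAAG within 100 bp of the summit. They are neighbouring peaks upstream of *Tox2*, the first in the WT list only and the second in the dKO list only. Capitals mark ATCAAAG and, in the first, an E-box CAGCTG.
Tox2 −39.8 kb, chr2:162990382-162990582, plus strand: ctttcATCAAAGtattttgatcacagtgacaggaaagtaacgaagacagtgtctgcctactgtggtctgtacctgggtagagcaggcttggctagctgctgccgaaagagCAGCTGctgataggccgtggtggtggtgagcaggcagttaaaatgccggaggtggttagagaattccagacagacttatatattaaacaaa
Tox2 −39.5 kb, chr2:162990650-162990850, plus strand: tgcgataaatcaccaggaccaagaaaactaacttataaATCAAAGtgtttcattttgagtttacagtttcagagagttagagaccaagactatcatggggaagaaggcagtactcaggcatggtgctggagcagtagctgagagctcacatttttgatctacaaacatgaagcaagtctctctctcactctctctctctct

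The fourth set holds the peak of highest rank in the WT list near *Nr4a1* and near *Nr4a3*, with the 11 summit bases in capitals in the first and the Runx sequence TGTGGTT in the second, and 30 bp at the inner start of *Nr4a2*, where capitals mark the cyclic AMP response element TGACGTCA.
Nr4a1 −26.0 kb, chr15:101071187-101071387, plus strand: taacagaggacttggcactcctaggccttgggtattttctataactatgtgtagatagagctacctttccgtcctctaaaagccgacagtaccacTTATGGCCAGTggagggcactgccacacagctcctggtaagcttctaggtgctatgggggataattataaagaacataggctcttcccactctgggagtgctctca
Nr4a3 +29.9 kb, chr4:48087834-48088034, plus strand: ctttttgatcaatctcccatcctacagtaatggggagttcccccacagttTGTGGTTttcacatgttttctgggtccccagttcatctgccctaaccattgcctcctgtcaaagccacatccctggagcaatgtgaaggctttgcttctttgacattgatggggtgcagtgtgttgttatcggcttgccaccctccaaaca
Nr4a2 +8.98 kb, chr2:56967478-56967507, plus strand: tatttccgaccTGACGTCAcgactggggct

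MACS2 describes a peak by its pileup, which counts the fragments over the summit, and by its fold enrichment, which divides that pileup by the background estimated nearby. Pools of unequal depth give unequal fold enrichments, so each peak is placed by the percentile of its fold enrichment within its own list, where 0 is the weakest and 100 the strongest peak. A change in rank is the dKO percentile minus the WT percentile. As a second scale, pileups divided by the fragments of their pool were compared (dKO over WT) and set relative to the median of all shared sites, 0.917, with a 95% interval that covers counting error only.

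As a group, the members stood near the whole lists in unshared peaks and rank changes, at median percentiles of 40.6 (WT) and 40.1 (dKO). Of the 36 WT peaks, 7 had no dKO peak, a share of 19.4% (95% Wilson interval 9.75 to 35.0), where the whole WT list has 30.1%. Of the 32 dKO peaks, 3 had no WT peak, or 9.38% (3.24 to 24.2), where the whole dKO list has 14.0%. Both intervals include the share of the whole list. At the shares of all peaks in the same deciles of fold enrichment, 12.1 WT and 5.62 dKO members would have been unshared. With both lists cut to their 20000 peaks of highest −log10 p, the order turned, to 22 WT and 25 dKO members. Of these, 3 and 6 were found in that list only, where 19.7% and 18.9% of all peaks were. Among the 29 shared sites 10 ranked higher in dKO cells, where 38.0% of all shared sites did. Their median change in rank was −5.4 percentile points, against −3.46 over all 21739 shared sites. Single sites with large and opposite changes lie at *Tox*, *Tox2* and *Nr4a3*, as the map of the 5 windows shows.

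**Figure D1:**
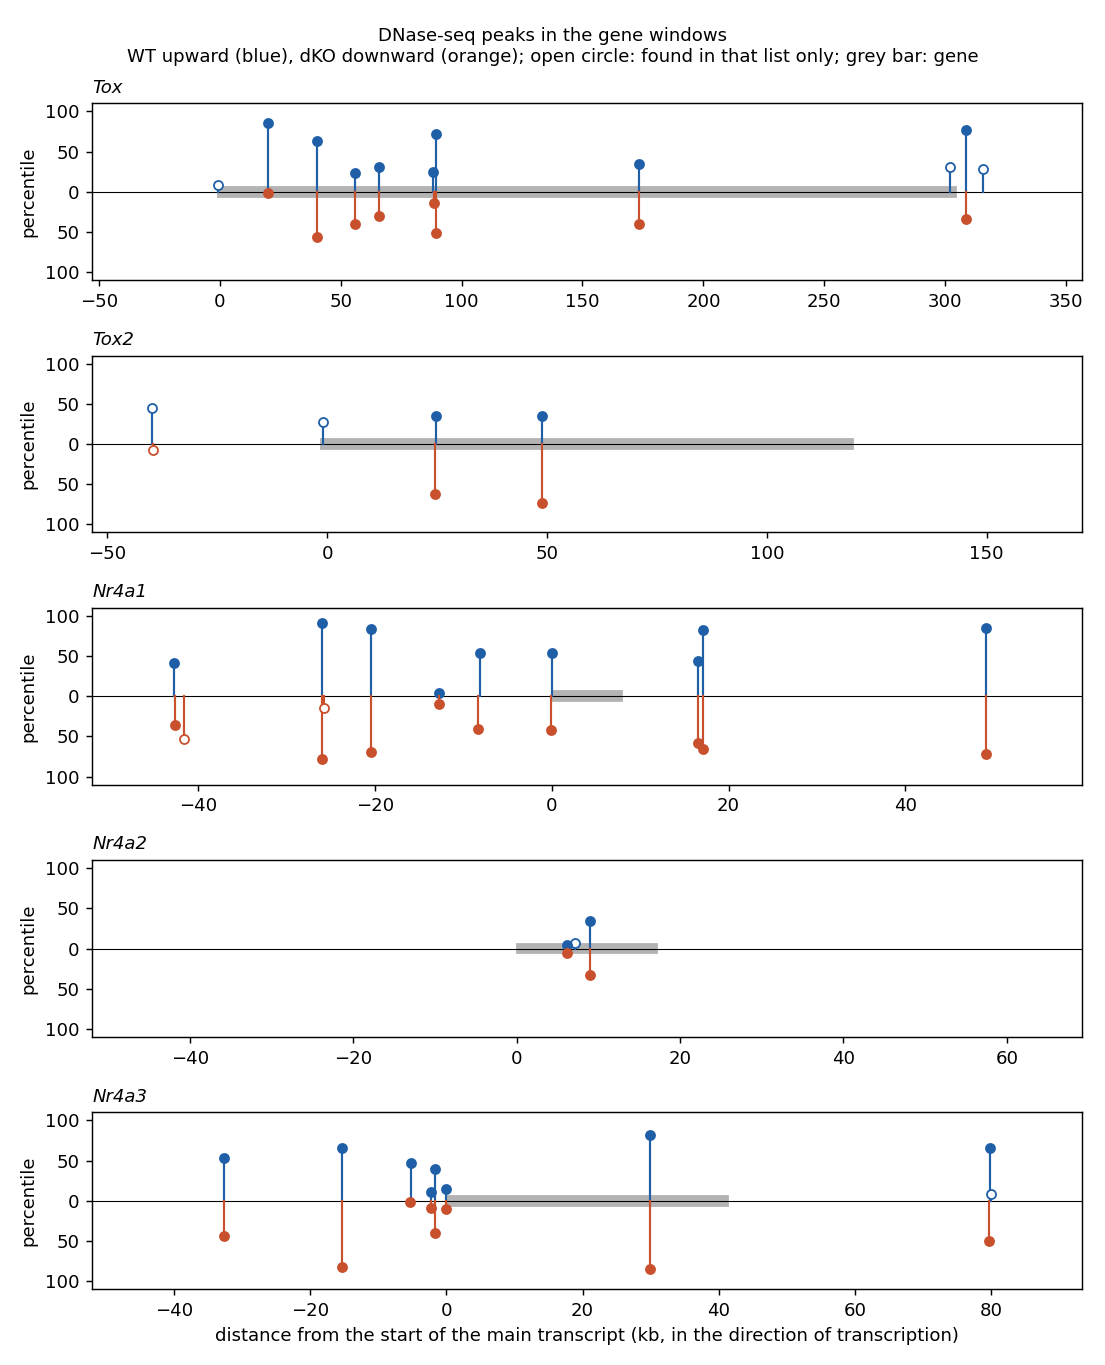
Each stem is a DNase-seq peak, placed by its distance from the start of the gene's main transcript (kb, in the direction of transcription), with its height the percentile of fold enrichment in the WT list (upward, blue) or the dKO list (downward, orange). Open circles are peaks found in 1 list only and the grey bar is the gene; the tall WT stem 20.1 kb inside *Tox* faces a dKO stem of percentile 1.54, and the dKO stems inside *Tox2* are taller than the WT stems.

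*Tox*, on the minus strand of chromosome 4, had 11 WT and 8 dKO peaks in a window of 405 kb. Its strongest WT peak was among the weakest of the dKO list. This site lies in intron 1, 20.1 kb inside the gene (chr4:6897625-6898005). It ranked at percentile 85.1 in WT cells, with 86 fragments at the summit and a fold enrichment of 13.4. In dKO cells it ranked at percentile 1.54, with 17 fragments and a fold enrichment of 3.49, under the minimum of 4 that the study set for an accessible site. The change of −83.6 points was one of the 2 lowest among 21739 shared sites. The scaled pileup ratio was 0.291 (0.162 to 0.493). The dKO peak was narrower, at 172 bp against 381 bp. Narrower dKO peaks were common, at 19 of the 29 shared members, and the median width over all shared sites was 203 bp in dKO against 232 bp in WT cells.

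Peaks as strong as this one were seldom lost. Of the 4640 WT peaks at or above its rank, 130 (2.8%) had no dKO peak at all. When such absent peaks are counted as percentile 0, 155 of the 31116 WT peaks (0.498%) fell as far as the *Tox* site or farther. The Tcf/Lef core ATCAAAG is not in the 201 bp around its summit. One copy lies within the wide WT peak, at chr4:6897650-6897656, on the side that the dKO peak no longer covers.

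The next *Tox* site to lose rank lies past the 3′ end of the gene, 309 kb from its start (chr4:6609196-6609436). It went from percentile 76.7 (76 fragments) to 33.7 (27 fragments), with a scaled ratio of 0.522 (0.324 to 0.820). A fall as large was found at 1.40% of all shared sites, at 3.2% of those in its decile of WT fold enrichment, and at 8.86% of all WT peaks with absent dKO peaks counted as percentile 0. Peaks on either side of it were present in WT cells only, one 302 kb from the start, in intron 8 and 572 bp inside the short transcript Tox-003 (percentile 30.7), and one at 316 kb (percentile 28.8). The 3′ end of *Tox* thus had 3 WT peaks and 1 dKO peak of lower rank. Absence was common at such strength. In the deciles of WT fold enrichment that hold the peaks at 316 and 302 kb, 49.4% and 37.3% of all WT peaks had no dKO peak.

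No other shared peak of intron 1 fell as far as the site at 20.1 kb. One of these 5 peaks, 55.7 kb inside the gene, carries the NFAT sequence GGAAAA at 2 places within 100 bp of its summit. It rose from percentile 23.9 to 39.9 with a scaled ratio of 1.77 (1.10 to 2.88). A rise as large was found at 7.97% of all shared sites and at 15.2% of those in its decile of WT fold enrichment. The remaining 4, at 40.3, 66.0, 88.4 and 89.3 kb, all had lower percentiles in dKO cells, with changes of −6.17, −0.115, −9.88 and −20.5 points. Their ratios ranged from 0.967 to 1.47 and all intervals included 1. The intron 3 peak at 174 kb changed by 4.76 points, with a ratio of 1.47 (0.879 to 2.46).

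At the *Tox* promoter there was a weak peak in WT cells only. Its summit lay 132 bp inside the start of transcript Tox-002, and it held 28 fragments at a fold enrichment of 3.96 (percentile 8.19), just short of the minimum of 4. In the lowest decile of the WT list, 69.0% of peaks had no dKO peak. In WT cells the intron 1 site was thus far stronger than the promoter.

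*Tox2*, on the plus strand of chromosome 2, had 4 WT and 3 dKO peaks in 221 kb. Both of its intronic sites ranked higher in dKO cells. The site in intron 1, 24.7 kb inside the gene (chr2:163054883-163055054), went from percentile 35.1 with 36 fragments to 61.7 with 45 fragments. The site in intron 2, at 48.9 kb (chr2:163078991-163079424), went from percentile 35.4 with 40 fragments to 73.3 with 57 fragments. Both thus held more fragments in the shallower pool. Scaled ratios were 1.84 (1.16 to 2.93) and 2.09 (1.37 to 3.22). Rises as large were found at 2.99% and 0.989% of all shared sites, and at 6.45% and 1.79% of those in the same decile of WT fold enrichment. Over all dKO peaks, with absent WT peaks counted as percentile 0, the shares were 7.57% and 4.14%.

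Outside these introns, all *Tox2* peaks were found in 1 list only. The promoter peak, 504 bp from the start of transcript Tox2-002, was in the WT list only (34 fragments, percentile 27.8). Upstream of the gene, a WT peak at −39.8 kb (chr2:162990264-162990548, 43 fragments, percentile 44.4) had no dKO peak over it. A dKO peak lay next to it at −39.5 kb (chr2:162990691-162990792, 17 fragments, percentile 7.43) with no WT peak over it. Absence in the other list is common at these strengths, at 49.4% of the WT peaks in the decile of the promoter peak, 31.3% in that of the peak at −39.8 kb, and 44.3% of the dKO peaks in that of the peak at −39.5 kb. Each upstream peak has its own copy of ATCAAAG, 92 bp from the WT summit and 59 bp from the dKO summit, as printed above. The WT copy lies within its peak, whereas the dKO copy straddles the left edge of its peak.

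**Figure D2:**
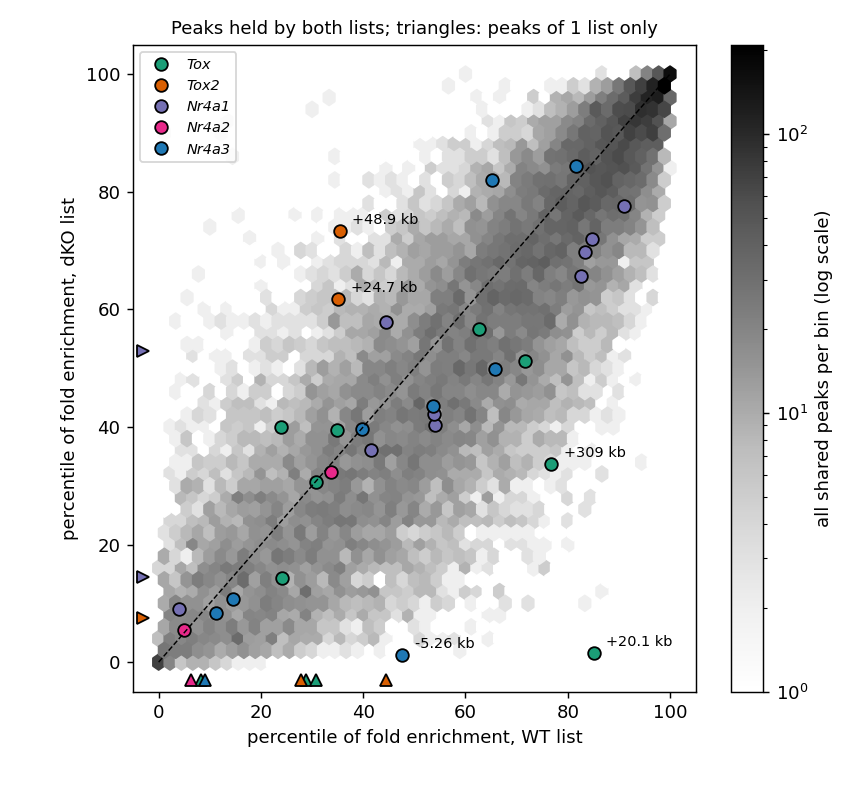
Percentile of fold enrichment in the WT list (horizontal) and the dKO list (vertical) for the 29 shared member sites, coloured by gene, over all 21739 shared sites in grey (number per bin, log scale). Triangles on the axes are the 7 peaks of the WT list only and the 3 of the dKO list only, and distances label the 5 sites that changed by over 25 points: 20.1 kb and 309 kb at *Tox* and −5.26 kb at *Nr4a3* below the diagonal, and both *Tox2* introns above it.

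*Nr4a1*, a short gene on chromosome 15, was the most densely covered of the 5. It had 9 WT and 11 dKO peaks in 108 kb, or 8.34 and 10.2 per 100 kb, which placed it at percentiles 93.5 and 98.5 among 21670 protein-coding genes. Every WT peak had a dKO partner. At the shares of all peaks in the same deciles of fold enrichment, 1.97 of the 9 would have lacked one. The upper Wilson limit for the unshared share was 29.9%, close to the 30.1% of the whole WT list, so few peaks set *Nr4a1* apart in this respect only weakly. *Nr4a1* was also the only one of the 5 with more dKO than WT peaks, as were 10.7% of all genes.

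The promoter of *Nr4a1* was open in both genotypes. The WT summit, in the first untranslated exon, lay 11 bp from the start (65 fragments, percentile 53.8), and the dKO summit 78 bp upstream (37 fragments, percentile 42.2), with a scaled ratio of 0.837 (0.543 to 1.27). The strongest member of the WT list was an upstream peak at −26.0 kb (chr15:101071242-101071357), with 97 fragments at percentile 90.9 in WT cells and 54 fragments at percentile 77.5 in dKO cells. Its ratio was 0.818 (0.576 to 1.15). Ratios at the other 7 shared sites ran from 0.711 to 1.24, and no interval of the 9 sites lay wholly above or below 1, the nearest to it being 0.517 to 1.0 at −20.4 kb. The extreme changes in rank were −16.9 points at 17.1 kb and 13.3 points at 16.5 kb, so that neighbouring peaks near the start of *9430023L20Rik* moved in opposite directions.

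Both dKO-only peaks near *Nr4a1* lay upstream. One, at −41.7 kb, is inside *Grasp* (35 fragments, percentile 52.9), and in its decile of the dKO list 9.52% of peaks had no WT peak. The other, at −25.8 kb, stands beside the strongest peak and was weak (22 fragments, percentile 14.4). A peak between the starts of *Grasp* and *A330009N23Rik*, at −42.7 kb, was shared. Several *Nr4a1* members thus lie at promoters of other genes, and which gene they serve was not tested.

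*Nr4a2*, on the minus strand of chromosome 2, had the fewest peaks, 3 in the WT and 2 in the dKO list. All lay inside the gene, and the outer start, of transcript Nr4a2-001, had none. The strongest sat at the inner start of transcript Nr4a2-003, with the WT summit 11 bp from it and TGACGTCA within the peak. It had 68 fragments in WT and 50 in dKO cells, at percentiles 33.8 and 32.4, and a ratio of 1.08 (0.735 to 1.58). The other shared peak, at 6.18 kb in intron 1, was near the bottom of both lists (percentiles 5.03 and 5.5). Another intron 1 peak, at 7.17 kb, was in the WT list only at percentile 6.39, with a fold enrichment of 3.81 that missed the minimum.

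*Nr4a3*, on the plus strand of chromosome 4, had 9 WT and 8 dKO peaks in 141 kb, and 8 sites were shared. One upstream site lost most of its rank. At −5.26 kb (chr4:48052636-48052840) the pileup was 104 fragments in WT and 31 in dKO cells. The fold enrichment was 7.65 and 3.40, and the percentile 47.6 and 1.24, so that the dKO peak missed the minimum of 4. The scaled ratio was 0.438 (0.283 to 0.660), and an E-box lies 2 bp from the WT summit. A fall as large was seen at 1.0% of all shared sites, and at 7.49% of all WT peaks with absent dKO peaks counted as percentile 0. In the WT list only 2 members had a higher pileup, so the background that MACS2 set against this site was high too.

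Sites nearer the promoter showed no difference beyond counting error. The promoter peak, 73 bp upstream of the start, had 77 and 53 fragments (percentiles 14.6 and 10.7). The peaks at −1.68 kb (127 and 87 fragments) and −2.28 kb (76 and 51 fragments) had scaled ratios of 1.01 and 0.986, and that of the promoter was 1.01, with all intervals including 1. The site at −1.68 kb had the highest pileup of all members in both lists but percentile 39.7 in each. By the definition of fold enrichment, a high pileup at a low percentile means a high local background.

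The other *Nr4a3* sites moved in rank in both directions. The strongest dKO member lay in intron 7, 29.9 kb inside the gene (chr4:48087647-48088099), at percentile 81.6 with 102 fragments in WT and 84.4 with 76 fragments in dKO cells. The upstream site at −15.4 kb had 52 fragments in each pool and went from percentile 65.2 to 81.9, with a ratio of 1.47 (0.981 to 2.2). The site at −32.7 kb went from percentile 53.6 to 43.6 and that at 79.8 kb, at the start of *Stx17*, from 65.7 to 49.9, with ratios of 1.04 (0.632 to 1.68) and 0.909 (0.575 to 1.42). The single peak of the WT list only lay beside it, inside *Stx17*, with 22 fragments at percentile 9.07.

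**Figure D3:**
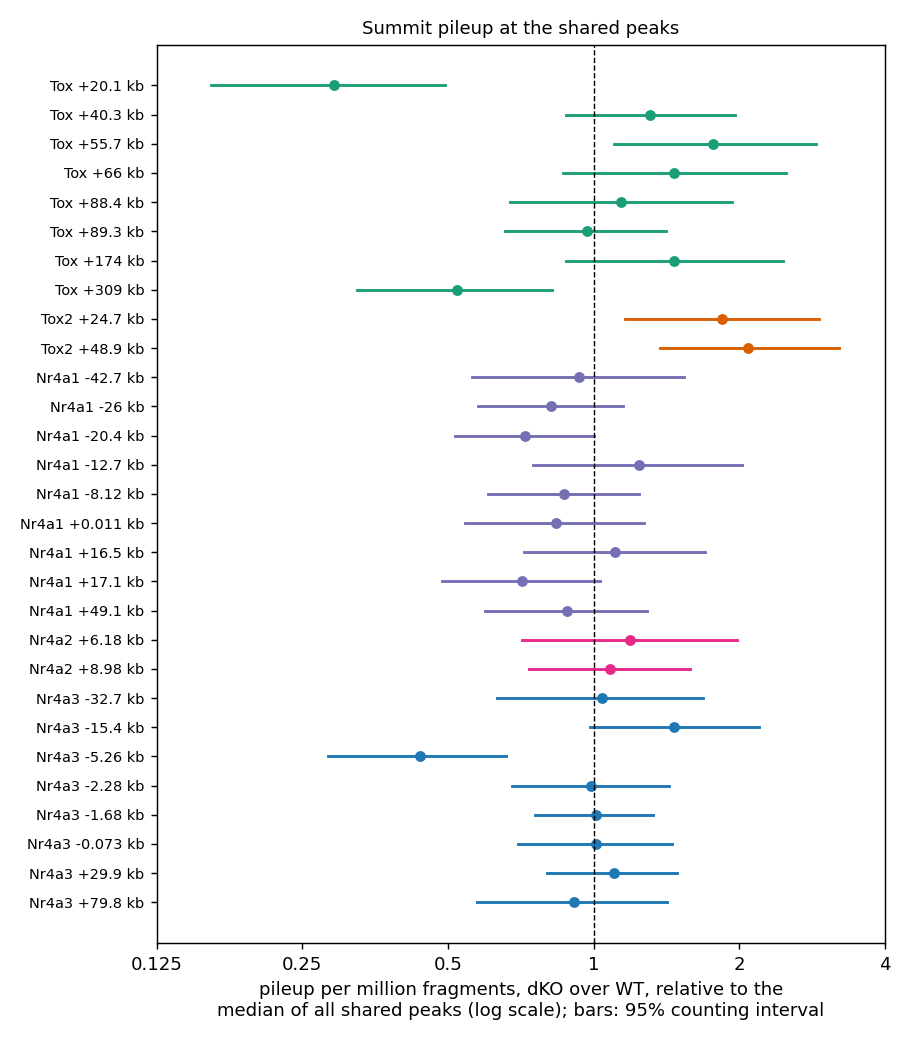
Depth-scaled summit pileup in dKO over WT at the 29 shared sites, relative to the median of all shared sites (log axis), with bars for the 95% counting interval and colours for genes. The bars lie wholly below 1 at *Tox* 20.1 kb, *Tox* 309 kb and *Nr4a3* −5.26 kb, and wholly above 1 at *Tox* 55.7 kb and both *Tox2* sites.

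Own promoters had a peak at all 5 genes in WT cells and at 3 in dKO cells, those of the *Nr4a* genes. *Tox* had 2 such WT peaks. The one at its 5′ end missed the study's minimum, and the one at 302 kb, by the inner start of Tox-003, met it (fold enrichment 5.95). The promoter peak of *Nr4a2* lay at the inner start only. A promoter peak here is one within 1 kb of an annotated start. Among all protein-coding genes, 46.1% had one in WT and 42.3% in dKO cells, and of the 9984 with a WT promoter peak 958 (9.6%) had none in dKO cells. The *Tox* and *Tox2* promoter peaks that were absent in dKO cells were among the weaker WT peaks, as given above. Counting the starts of any gene, 11 of 36 WT members (30.6%) and 8 of 32 dKO members (25%) were promoter peaks, beside 40.8% and 42.7% of the whole lists.

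Peak density set *Nr4a1* and *Nr4a3* apart from *Tox*, *Tox2* and *Nr4a2*. *Nr4a3* had 6.37 WT and 5.66 dKO peaks per 100 kb (percentiles 85.9 and 87.6 of all genes). *Tox* had 2.71 and 1.97, *Nr4a2* 2.56 and 1.71, and *Tox2* 1.81 and 1.36, beside medians of 2.25 and 1.82 over all genes. Density counts every peak of a window, those at other genes included.

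**Figure D4:**
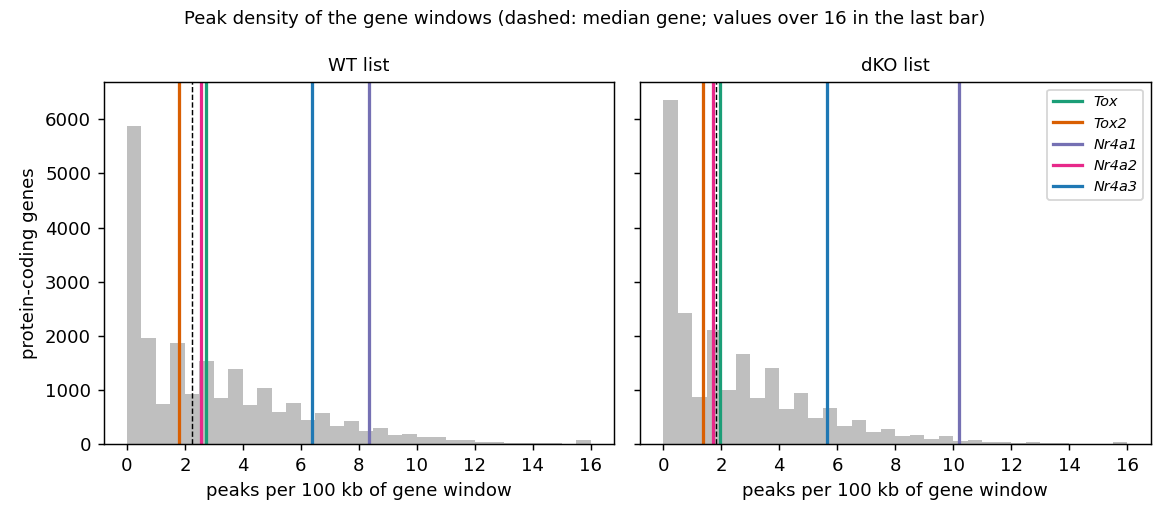
Peaks per 100 kb of gene window (gene body and 50 kb on either side) over 21670 protein-coding genes, in grey, for the WT list (left) and the dKO list (right). Coloured lines mark the 5 genes and the dashed line the median gene, at 2.25 and 1.82; *Nr4a1* and *Nr4a3* lie far to the right in both lists.

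Motifs were searched as short sequences on both strands within 100 bp of each summit, where CAGCTG and TGACGTCA read alike on either strand and count once. None of the sequences contains another. The Tcf/Lef core ATCAAAG was at 1 of 36 WT and 1 of 32 dKO members, or 2.78% and 3.12%, beside 3.88% and 2.44% of all peaks. Over whole peaks it was at 4 WT members, the *Tox* sites at 20.1 and 55.7 kb and the *Tox2* sites at −39.8 and 48.9 kb, and at 1 dKO member, the *Tox2* site at 48.9 kb. Whole peaks of all genes held it in 4.10% of WT and 2.47% of dKO peaks. A match describes the sequence and does not show that Tcf1 or Lef1 was bound.

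The E-box CAGCTG was at 9 WT members (25%, 13.8 to 41.1) and 6 dKO members (18.8%, 8.89 to 35.3), where 12.6% and 12.2% of all peaks hold it. The NFAT sequence GGAAAA was at 6 members in each list, and TGTGGTT, bound by Runx factors, at 5 WT and 4 dKO members. The share of all peaks was 13.3% and 13.5% for GGAAAA, and 9.72% and 10.6% for TGTGGTT. TGACGTCA was at 1 member in each list, with 1.89% and 2.09% over all peaks. The AP-1 sequence TGANTCA, the Nr4a response element AAAGGTCA and the ETS sequence CCGGAAG were at no member, which allows shares up to 9.64% in WT and 10.7% in dKO peaks (upper 95% Wilson limits). All WT peaks held them at 6.22%, 0.662% and 8.64%, and all dKO peaks at 6.40%, 0.748% and 9.46%.

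Related gene groups give the wider setting, with the same windows. The relatives *Tox3* and *Tox4* had 6 peaks in each list, with 1 of each list unshared. The 20 genes of T cell receptor signalling and its early targets, such as *Nfatc2*, *Egr2*, *Irf4* and *Batf*, had 142 WT and 123 dKO peaks, of which 36 (25.4%) and 17 (13.8%) were found in that list only. The median change in rank of their shared sites was −1.27. The 19 receptors and factors of exhaustion, such as *Pdcd1*, *Ctla4* and *Bach2*, had 151 and 119 peaks, 47 (31.1%) and 16 (13.4%) of them in that list only, with a median change of −4.21. The retinoid X receptor genes, *Rxra*, *Rxrb* and *Rxrg*, partners of Nr4a proteins, had 8 and 6 peaks, with 4 and 2 unshared. Shares in the 2 large groups were thus near those of the whole lists, 30.1% and 14.0%.

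Markers of the cell type were checked in the same way. Of 12 CD8+ T cell genes, 10 had a promoter peak in WT and 9 in dKO cells, with *Thy1* and *Tcf7* lacking one in both and *Cd3d* in dKO cells. Of 4 CD4+ and regulatory T cell genes only *Il2ra* had one, in both lists. None of 5 B cell and 3 NK cell genes had one, and of 4 myeloid genes *Itgam* did in WT cells only. The part of other cell types in the member sites was not tested.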

How the data were processed

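DNase-seq of naïve CD8+ T cells was analysed in 3 WT and 2 dKO replicates. Per the methods and labels, the authors aligned the reads to mm9 with Bowtie2 2.2.5, pooled the replicates of each genotype and called peaks with MACS2 2.1.1 without a control library. They deposited 1 peak list per genotype. The deposited pileup is an unscaled signal in fragments, the deposited fold enrichment divides it, as a ratio, by the local background, and the deposited −log10 p and −log10 q are the authors' MACS2 p-value and q-value. The file headers give 83923734 fragments after filtering for WT and 62242963 for dKO. The totals before it, 167847468 and 124485926, are exactly 2 times these numbers, and what the factor reflects was not tested.

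All peaks as deposited were used, and those at 4-fold enrichment or more with p below 1e-05 and q below 0.05 were said to meet the study's minimum (32 of 36 WT and 30 of 32 dKO members). Peaks were shared if they overlapped by at least 1 bp. Genes and starts came from the gencode vM1 annotation of mm9. Pileup ratios have counting intervals only, and pools give no replicate error. All promoter peaks, all peaks of 1 list and the largest rank changes per gene in each direction were named, and the *Tox* site at 309 kb was added after its value was seen. The members and gene lists were chosen with earlier results of these data known. The overlap and motif steps were tested on simulated data. Python 3.11.15, numpy 2.4.6, pandas 2.3.3, scipy 1.17.1, pysam 0.24.0 and matplotlib 3.10.9 were used.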

Additional observations from a re-analysis of the deposited data

How the results depend on the processing

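No paired analysis was possible because the lists were called on pooled replicates, and for the same reason no replicate could be left out. Of 63 comparisons with an alternative setting, 47 kept counts within 1.5 times and rank changes in direction, and no rank change reversed. With the study's minimum (fold enrichment of at least 4, p and q as above), 5 of 30 dKO members were found in that list only. Of all dKO peaks, 14.4% were. With a fold enrichment of at least 8, 14 WT and 13 dKO members remained in the windows, none with ATCAAAG (0 and 0). Of 9 shared sites, 2 ranked higher in dKO cells, and 2 genes exceeded the median gene in WT peak density. With the 20000 peaks of highest −log10 p, 22 WT and 25 dKO members remained, 3 found in the WT list only and 6 in the dKO list only. WT thus no longer had more members or more unshared members than dKO. Of all peaks, 19.7% (WT) and 18.9% (dKO) were unshared at this setting. Here 0 dKO members had ATCAAAG, and 2 genes exceeded the median in WT cells. With a flank of 25 kb, 0 of 24 dKO members were found in that list only, where 14.0% of all dKO peaks were. ATCAAAG was at 0 WT and 0 dKO members within 50 bp of the summit and at 4 WT members over whole peaks.

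The 5 rank changes over 25 points kept their direction in all 14 alternatives that gave a value. Another 11 gave none because a peak missed the stricter limit in at least 1 list. All alternatives rank the same peaks from which the 5 sites were picked for large changes, so a kept direction is no independent check. The *Tox* site at 20.1 kb and the *Nr4a3* site at −5.26 kb had no value under any stricter limit. For these sites the direction was checked only with ranks by −log10 p or by pileup. Ranked by pileup, the *Tox* site at 20.1 kb changed by −73.8, the *Nr4a3* site at −5.26 kb by −55.2 and the *Tox2* site at 48.9 kb by 38.6.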

Other observations

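By the numbers of shared, WT-only and dKO-only peaks in the window, 4 protein-coding genes matched *Nr4a1* exactly, among them *Wdr83*, *Dhps* and *Zc3hc1*. The same pattern as *Tox* was found at 44 genes (nearest in window length *9130011E15Rik*, *Ncoa7* and *Hs2st1*), as *Tox2* at 80 (*Wwp2*, *Itgb6* and *Insr*), as *Nr4a3* at 84 (*Rpl24*, *Ptp4a2* and *Rilpl1*), and as *Nr4a2* at 646 (*Pla2g12a*, *Tatdn3* and *Dhodh*).

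The limit of 50 kb fell in wide gaps between peaks. The outermost WT members lay 11.2 kb from *Tox*, 38.4 kb from *Tox2*, 42.7 kb from *Nr4a1*, 38.7 kb from *Nr4a3* and inside *Nr4a2*. The nearest WT peaks left out lay at 171, 77.3, 68.4, 80.4 and 58.1 kb in the same order, at percentiles 44.0, 88.2, 86.5, 45.5 and 69.6. In the dKO list, a peak of percentile 96.6 that the WT list does not hold lay 125 kb from *Tox*.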
